A study of Rattus norvegicus with 71 samples.

Results

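Collagens are the triple-helical proteins that give the extracellular matrix its fibrils and sheets. Here, every gene of the deposited rat count table whose symbol has the form of a collagen chain (Col, a type number, a, a chain number) was taken, which gave 28 genes of 17494. They were grouped by the structure that their proteins build: 10 fibrillar collagens, 5 basement membrane collagens and 13 other collagens. Genes of further chains, such as Col4a2, Col4a5 and Col4a6, were not analysed here.

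The study immunized rat dams with peptides of proteins that maternal autoantibodies in autism (MARA-ABs) recognize, and sequenced brain RNA of their Sprague-Dawley offspring at postnatal day 2 (PND2). There were 24 controls of 7 litters, 8 offspring of 4 CRMP1+CRMP2 litters, 25 of 9 LDHA/B+CRMP1+STIP1 litters, 6 of 3 CRMP1+GDA litters and 8 of 4 STIP1+NSE litters, 35 males and 36 females in all. Control dams received saline with the same Freund's adjuvant, so every animal in this report had an adjuvant-treated dam. The animals fall into 2 batches by their title series, which were processed and sequenced apart: in batch 1 there were 12 controls (3 litters) and 16 animals of LDHA/B+CRMP1+STIP1 (4 litters). Batch 2 had the remaining 12 controls (4 litters), 9 animals of that pattern (5 litters) and everything from the other 3 patterns. CRMP1 and CRMP2 are collapsin response mediator proteins, LDHA/B lactate dehydrogenase, STIP1 stress-induced phosphoprotein 1, GDA guanine deaminase and NSE neuron-specific enolase. RNA came from a coronal slice with the hippocampal formation and the cortical and subcortical structures beside it, although the series' own design text names frontal cortex and hypothalamus. The allocation table in the study's methods places the sequenced controls and LDHA/B+CRMP1+STIP1 pups in the dams' second litters and those of the other patterns in first litters, while the text of the methods says first litters throughout. By that table, pattern and litter order cannot be told apart for CRMP1+CRMP2, CRMP1+GDA and STIP1+NSE. Nothing in the labels says that meninges or choroid plexus were removed.

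A collagen chain is made in the endoplasmic reticulum, where prolines and lysines are hydroxylated, and is wound with its partners into a triple helix by HSP47 and other chaperones. Fibrillar collagens are cleaved at both ends outside the cell and line up in fibrils, type IV collagens join into the sheet of the basement membrane, and the remaining types coat fibrils, anchor membranes or span them. In brain, fibrils are known mainly from the meninges and the larger vessels, and basement membrane collagen from the walls of capillaries and the glial surface under the pia. In bulk tissue, fewer cells of a type and less RNA per cell cannot be told apart.

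Library totals ran from 24880182 to 36234952 counts. Summed over the 28 genes, collagens took 553 to 2327 CPM (counts scaled to a library of equal size), with a median of 1294. Neuronal identity of the tissue was clear, with 2922 to 4297 CPM of the neuronal tubulin gene Tubb3. Markers of other tissues differed far more between animals. The 12 choroid plexus markers summed to 7.31 to 592 CPM in batch 1 and 155 to 3473 CPM in batch 2, and 1 of the 12 (Prlr) had a median under 1 CPM. The 10 pineal markers summed to 48.5 to 275 CPM in 5 animals of batch 2 and to at most 15.8 CPM in the other 66, with Crx, a defining pineal transcription factor, at a median of 0. These 5 animals were 2 of CRMP1+CRMP2, 2 of STIP1+NSE and 1 of CRMP1+GDA. Results of CRMP1+CRMP2 and CRMP1+GDA below are also given without them, while those of STIP1+NSE are given only with all its animals.

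Levels of different genes were compared as RPKM, which divides the CPM by the exon length in kilobases. The fibrillar class was led by 3 genes of the interstitial fibril. Over the 71 animals the mean level was 33.6 RPKM for Col1a2 (chr4:32563938-32598868, plus strand, rn7), 29.1 RPKM for Col1a1 (chr10:79883622-79900625, plus strand) and 25.7 RPKM for Col3a1 (chr9:47374611-47410547, plus strand). Col1a1 and Col1a2 encode the chains of type I collagen, and Col3a1 that of type III, which shares fibrils with it. The Col1a1 to Col1a2 ratio of RPKM had a median of 0.857 and stayed between 0.657 and 1.12 in 70 animals. It was 0.467 in 1 LDHA/B+CRMP1+STIP1 animal of litter FcRn4, which had 64 counts of Col1a1.

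The type V genes stood next, with Col5a2 at 9.07, Col5a3 at 8.28 and Col5a1 at 8.21 RPKM. Type V collagen sits inside type I fibrils and limits their width. Col2a1 (7.25 RPKM), Col11a1 (4.71) and Col11a2 (2.35) encode chains that form the fibrils of cartilage, and Col27a1 (2.31) a fibrillar chain of developing cartilage. Markers of cartilage and bone were nearly absent beside them: 10 of 11 had a median under 1 CPM, Ucma had a median of 0, and the cartilage matrix gene Matn1 reached at most 1.39 CPM.

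Among the basement membrane collagens, Col4a1 (chr16:78183533-78294412, plus strand) had the highest mean level of all 28 genes, 39.4 RPKM. It encodes the main chain of the type IV network around brain vessels. Col18a1 (chr20:11474104-11582593, plus strand), whose C-terminal fragment is endostatin, had 12.1 RPKM and its relative Col15a1 (chr5:61501963-61607591, plus strand) 2.78 RPKM. Col4a3 and Col4a4, chains known from the glomerular basement membrane of the kidney, lay next to each other on chromosome 9 on opposite strands and had 0.324 and 0.522 RPKM. The Col4a4 model counted here held 7 exons and 1152 bases, and the gene passed 1 CPM in 6 of 71 animals. The partner that starts head to head with Col4a1 was not analysed here.

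The other collagens were led by Col9a3 at 13.95 RPKM (chr3:167711842-167734467, plus strand), Col6a2 at 12.7 RPKM (chr20:12021767-12049425, plus strand) and Col26a1 at 12.3 RPKM (chr12:19792728-19938556, plus strand). Col9a3 encodes a chain of type IX collagen, which coats type II fibrils, and Col6a2 a chain of the beaded filaments of type VI. Col23a1 (7.14 RPKM) and Col13a1 (1.497) encode membrane-spanning collagens. Col16a1 (4.76) and Col14a1 (1.46) encode collagens that attach to fibrils. Col8a1, a chain of the short-helix network under the corneal and vascular endothelium, had 0.834 RPKM. The epithelial collagens were low, with 0.581 RPKM for Col7a1, the anchoring fibril chain, and 0.0937 RPKM for Col17a1, the hemidesmosome chain, which was at 0 in 6 animals. In all, 22 of the 28 genes passed 1 CPM in all 71 animals.

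**Figure D1:**
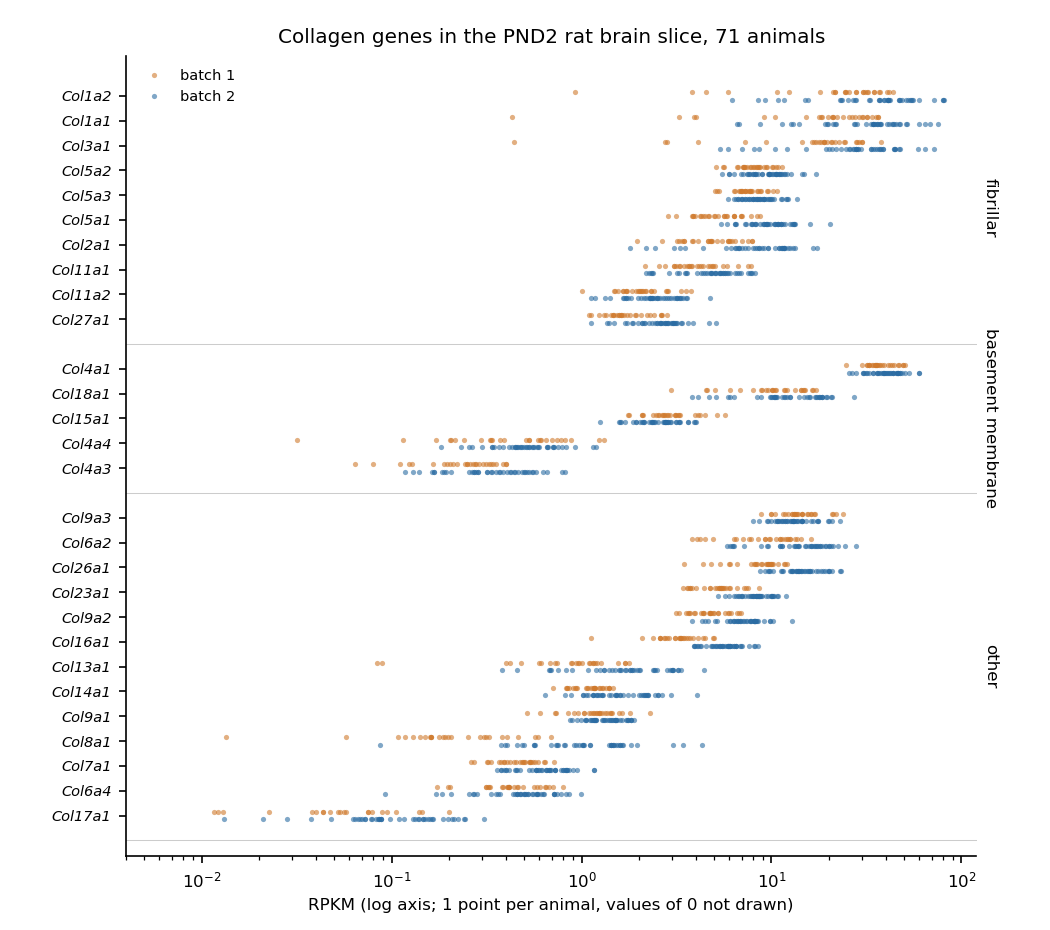
Level of each collagen gene in each animal, in RPKM on a log axis, with genes in rows by class and by falling mean level, and points coloured by batch. Col4a1, Col1a2, Col1a1 and Col3a1 hold the top of the scale, and the spread of Col1a1 (2.51 to 437 CPM) is far wider than that of Col4a1 (163 to 395 CPM).

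The members differed in how much they varied between animals. Col1a1 ran from 2.51 to 437 CPM, a 175-fold range, Col3a1 over a 161-fold range and Col1a2 over an 88.2-fold range. Col4a1 ran from 163 to 395 CPM, a 2.43-fold range, and Col5a3 over a 2.70-fold range. After the mean of each group and batch was taken off, the SD of log2(CPM + 0.5) was 1.09 for Col1a1, 1.05 for Col1a2 and 1.10 for Col3a1, against a median of 0.419 over the 28 genes and 0.267 for Col4a1.

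The wide range of the type I and III genes lay within litters. In litter RNA4, controls of batch 1, Col1a1 was 19.01 CPM in the lowest littermate and 168 CPM in the highest. In litter 9_7 of STIP1+NSE, the female had 38.6 CPM of Col1a1 and the male 375 CPM. Littermates differed by more than 2-fold for Col1a1 in 13 of the 26 litters with at least 2 animals, and for Col4a1 in 0 of 26, where the widest difference was 1.82-fold. The intraclass correlation over litters (the share of the variance that lies between litters rather than within them) was -0.05 for Col1a1, -0.01 for Col1a2 and 0.04 for Col3a1. It was 0.61 for Col11a1, 0.57 for Col2a1 and 0.51 for Col9a2, and its median over the 28 genes was 0.316. Litters were nested in group and batch, whose means were taken off first. The study also labelled cohorts of litters that were born and sampled at about the same time. Cohort means were not taken off, so variance between litters and variance between cohorts cannot be told apart here.

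**Figure D2:**
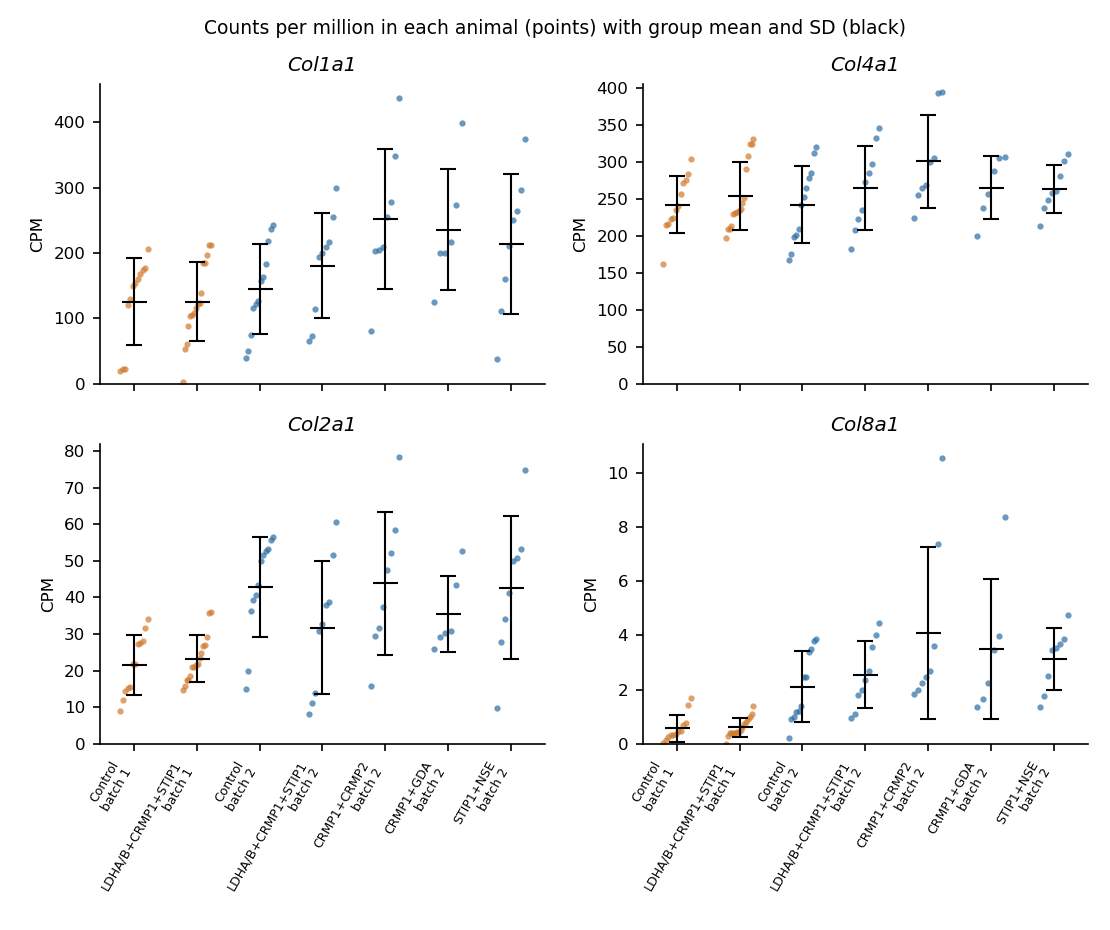
CPM of Col1a1, Col4a1, Col2a1 and Col8a1 in each animal, sorted from low to high within each group and batch, with the group mean and SD in black. Groups overlap in all 4 panels, and Col8a1 is at most 1.68 CPM in batch 1 against up to 10.5 CPM in batch 2.

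The members fell into sets that moved together between animals of the same group and batch. Correlations here are Pearson's r over 71 animals of log2(CPM + 0.5) with group and batch means taken off. Animals share litters and cohorts, and genes share libraries, so these correlations are given as descriptions. With Col1a1, r was 0.99 for Col1a2, 0.98 for Col3a1, 0.90 for Col18a1, 0.89 for Col6a2 and 0.87 for Col13a1. Spearman's rho for these 5 genes was 0.81 to 0.98, r was 0.83 to 0.99 without the 2 animals farthest from the median of Col1a1, and it was 0.845 to 0.994 within either batch. This set crosses the classes, as it holds fibrillar, basement membrane, beaded filament and transmembrane chains.

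A second set moved with Col2a1. Here r was 0.77 for Col11a1, 0.75 for Col11a2, 0.68 for Col27a1, 0.62 for Col9a2, 0.58 for Col4a3, 0.56 for Col6a4 and 0.51 for Col5a3. For Col11a1, r was 0.54 in batch 1 and 0.87 in batch 2, for Col4a3 0.17 and 0.72, and for Col6a4 0.57 and 0.56. The differences between batches were not tested. Col2a1 itself ran against Col1a1, with r = -0.32 (rho = -0.29, and -0.29 without the 2 animals farthest from the median of Col1a1). In litter 9_7, for example, Col2a1 was 74.8 CPM in the female that was low in Col1a1 and 34.1 CPM in the male. Col4a1 moved with Col5a2 (r = 0.82), Col18a1 (0.79), Col6a2 (0.77) and Col5a1 (0.74). With Col1a1 its r was 0.67 and rho 0.795, where rho was 0.795 for Col5a2 and 0.70 for Col5a1.

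**Figure D3:**
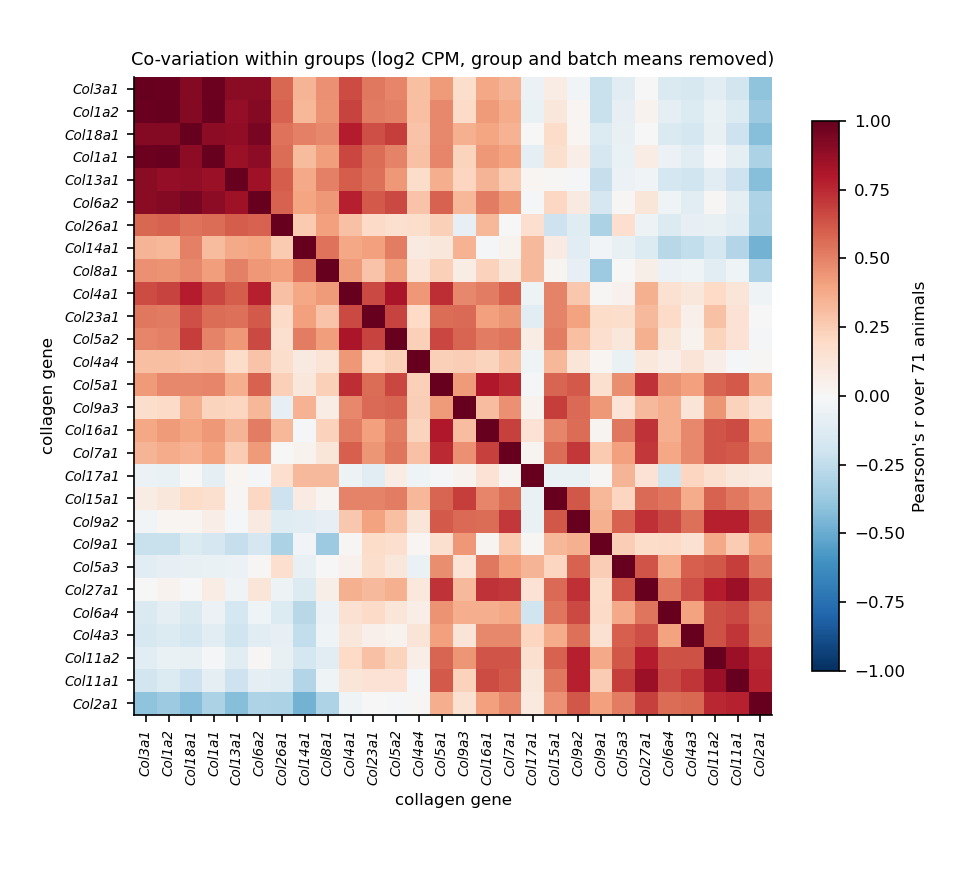
Pearson's r between collagen genes over 71 animals (log2 CPM, group and batch means removed), from -1 in blue to 1 in red, with genes ordered by r with Col1a1 minus r with Col2a1. The dark block at the upper left holds Col3a1, Col1a2, Col18a1, Col1a1, Col13a1 and Col6a2, and the block at the lower right ends in Col11a1 and Col2a1, whose r is 0.77.

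Of 12450 genes other than collagens with at least 1 CPM in at least 8 animals, the 5 whose pattern was most like Col1a1 were Slc22a6 (r = 0.97), Lum (0.95), Igf2 (0.95), Islr (0.95) and Colec12 (0.94). In the animal with the lowest Col1a1, Slc22a6 and Lum were at 0 counts. Slc22a6 encodes an organic anion transporter, Lum the fibril-bound proteoglycan lumican and Igf2 a growth factor. For Col4a1 they were Kdr (r = 0.88), Pdgfrb (0.87), Lamc1 (0.85), Dab2 (0.83) and Nid2 (0.83). Kdr encodes the endothelial VEGF receptor, Pdgfrb the PDGF receptor of pericytes, and Lamc1 and Nid2 encode laminin and nidogen chains of the basement membrane.

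The summed level of the 18 meningeal fibroblast markers in the table moved with Col1a1 (r = 0.93), and that of 15 endothelial markers with both Col1a1 (0.82) and Col4a1 (0.78). The 13 mural cell markers moved with Col4a1 (0.79) and the choroid plexus markers hardly with either (0.18 and 0.20). The lists overlap the genes most like Col1a1 and Col4a1, so the 2 observations are not separate. Slc22a6, Lum, Igf2 and Islr are in the meningeal list, Kdr in the endothelial list and Pdgfrb in the mural list. Igf2 alone had a median of 149 CPM, beside 432.5 CPM for the sum of the meningeal list. The meningeal markers summed to 55.1 to 525 CPM in batch 1 and 162 to 981 CPM in batch 2, and 1 of the 18 (Alx4) had a median under 1 CPM. Their part in the spread of the collagens was not tested. With Col2a1, the largest positive r of the 16 lists was that of the partners of the basement membrane (0.59, against 0.05 with Col1a1). Endothelial markers had -0.47, microglia markers -0.43, meningeal markers -0.41, and cartilage and bone markers -0.21.

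Sequence just before the annotated start is shown for members of both sets, since these are the genes that moved together: Col1a2 and Col18a1 of the Col1a1 set, then Col11a1 and Col11a2 of the Col2a1 set. Each is the 250 bases 5′ of the start of transcription as RefSeq annotates it on the GRCr8 build, read on the gene's own strand, and coordinates here are of GRCr8 while those above are of rn7. Capitals mark a CCAAT box (CCAAT), a GC box (GGGCGG) or a TATA box (TATAAA) on either strand. RefSeq windows were at hand for 22 of the 28 genes. Col1a1, Col2a1, Col3a1, Col6a2, Col9a3 and Col14a1 had no entry.
Col1a2, chr4:33518307-33518556, plus strand: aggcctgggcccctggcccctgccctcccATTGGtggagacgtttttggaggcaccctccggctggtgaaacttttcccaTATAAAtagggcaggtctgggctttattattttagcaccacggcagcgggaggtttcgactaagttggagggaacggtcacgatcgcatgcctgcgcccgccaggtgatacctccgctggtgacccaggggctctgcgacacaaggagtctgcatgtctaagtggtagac
Col18a1, chr20:11473395-11473644, plus strand: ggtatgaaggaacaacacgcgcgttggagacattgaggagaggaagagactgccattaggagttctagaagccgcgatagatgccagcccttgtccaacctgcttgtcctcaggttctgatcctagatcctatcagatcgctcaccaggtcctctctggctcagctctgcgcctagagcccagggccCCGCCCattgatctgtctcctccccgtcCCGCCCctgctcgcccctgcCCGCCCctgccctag
Col11a1, chr2:204508886-204509135, plus strand: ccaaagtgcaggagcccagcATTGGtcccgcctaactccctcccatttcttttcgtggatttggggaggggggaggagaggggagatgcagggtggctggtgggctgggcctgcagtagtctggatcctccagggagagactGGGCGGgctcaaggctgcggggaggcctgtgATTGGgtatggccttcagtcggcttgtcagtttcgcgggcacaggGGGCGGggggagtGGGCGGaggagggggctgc
Col11a2, chr20:4817649-4817898, minus strand: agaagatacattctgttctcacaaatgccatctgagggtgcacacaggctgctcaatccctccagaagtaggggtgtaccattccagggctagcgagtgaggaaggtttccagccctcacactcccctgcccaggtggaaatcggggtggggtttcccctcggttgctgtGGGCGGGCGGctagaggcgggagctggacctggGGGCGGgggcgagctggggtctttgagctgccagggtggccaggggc

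The CCAAT letters are in 34% of all 33469 windows of this length, the GC box letters in 30.5% and the TATAAA letters in 12.9%. Of the 22 collagen windows, 6 held CCAAT, 12 the GC box and 3 TATAAA. The collagen windows were richer in G and C, with a median of 61.2% beside 51.2% for all windows. The TATAAA letters began 170 bases before the start in Col1a2, 237 in Col13a1, and 161 and 112 in Col17a1. Col1a2 held 1 CCAAT and 1 TATAAA and no GC box, Col18a1 held 3 GC boxes only, and Col13a1, the third member of the Col1a1 set with a window, held 1 TATAAA only. Col11a1 held 2 CCAAT and 3 GC boxes, and Col11a2 held 3 GC boxes, 2 of which overlap by 2 letters. These are matches of letters, not sites shown to be bound.

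The start of Col4a1 lies 76 bases from that of Col4a2, which runs the other way. Only Col4a1 of the pair was measured here. The bases between the starts are shown because Col4a1 had the highest level of all members. They hold 1 GC box.
Col4a1 to Col4a2, chr16:84885521-84885596, read on the plus strand: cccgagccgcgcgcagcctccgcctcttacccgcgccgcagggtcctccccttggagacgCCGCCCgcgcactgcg

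The 47 exposed animals together were first set against the 24 controls. The first surrogate variable was a covariate. No collagen changed at a false discovery rate (FDR) under 0.1 in edgeR's quasi-likelihood test: 0 of the 27 collagens tested were called, beside 0.0321% of 12477 genes tested. At an unadjusted p under 0.05 there were 2 of 27, beside 10.3% of all genes. They were Col8a1 (log2 fold change 0.71 ± 0.25 SE, adjusted p = 0.334) and Col4a1 (0.13 ± 0.06, adjusted p = 0.481). DESeq2 and the fit with the litter as a random effect also called 0 collagens. Without the 5 animals high in pineal markers, 0 collagens had an unadjusted p under 0.05. The share of all genes under 0.05 in that fit is not given here, so this is not a result about collagens alone.

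CRMP1+CRMP2 was the one pattern with called collagens. Against all 24 controls, 5 of 28 collagens rose and 0 fell, a share of 17.9%, beside 11.4% of 12691 genes tested. Their SEs are of the edgeR fit over 8 and 24 animals. Over the 28 members the log2 fold change was positive in 24 and had a median of 0.29, beside 51.9% positive and a median of 0.01 over all genes. At an unadjusted p under 0.05 there were 12 of 28, all higher, beside 24.4% of all genes.

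Col8a1 stood at 1.84, 2.58 and 10.5 CPM (lowest, median, highest) in the 8 CRMP1+CRMP2 animals, at 0.0328, 0.414 and 1.68 CPM in batch 1 controls and at 0.213, 1.93 and 3.88 CPM in batch 2 controls. The CRMP1+CRMP2 animals lay above all batch 1 controls and overlapped the batch 2 controls. Its log2 fold change was 1.69 ± 0.39 (adjusted p = 0.0139) against all controls and 0.99 ± 0.39 (adjusted p = 0.196) against the 12 controls of batch 2.

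Col5a1, which nucleates fibrils, had a log2 fold change of 0.45 ± 0.14 (adjusted p = 0.0501). It stood at 43.8, 61.2 and 113 CPM in CRMP1+CRMP2, 17.5, 31.3 and 42.99 CPM in batch 1 controls and 30.2, 50.1 and 70.9 CPM in batch 2 controls. All 8 animals lay above the batch 1 controls, and 2 of them also lay above the highest batch 2 control.

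Col14a1 had 0.59 ± 0.18 (adjusted p = 0.0567), with 7.38, 12.9 and 25.99 CPM in CRMP1+CRMP2, 4.54, 7.50 and 9.42 CPM in batch 1 controls and 6.57, 8.29 and 19.02 CPM in batch 2 controls. These ranges overlap in both batches.

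Col23a1 had 0.32 ± 0.11 (adjusted p = 0.0820), with 15.5, 26.3 and 32.6 CPM in CRMP1+CRMP2, 10.9, 15.1 and 20.6 CPM in batch 1 controls and 17.8, 22.8 and 27.03 CPM in batch 2 controls. Col16a1 had 0.24 ± 0.08 (adjusted p = 0.0832), with 25.0, 30.2 and 44.2 CPM in CRMP1+CRMP2, 13.5, 17.3 and 25.9 CPM in batch 1 controls and 21.01, 30.8 and 35.6 CPM in batch 2 controls. The batch 2 controls had the higher median of Col16a1.

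Against the 12 controls of its own batch, with sex as covariate, 0 of 28 collagens were called for CRMP1+CRMP2, beside 0.785% of 12738 genes, and DESeq2 also called 0. At an unadjusted p under 0.05 there were 5 of 28, all higher, beside 18.5% of all genes. Besides Col8a1 these were Col4a1 (0.28 ± 0.11), Col1a1 (0.78 ± 0.32), Col5a2 (0.31 ± 0.15) and Col1a2 (0.70 ± 0.34), with adjusted p of 0.204 to 0.26. Without litter 9_16, 3 were called, among them Col8a1 (1.21, adjusted p = 0.066) and Col4a1 (0.34, adjusted p = 0.0846). The share of all genes called without that litter is not given here. Without the 5 animals of batch 2 high in pineal markers, 0 collagens had an unadjusted p under 0.05, beside 11.7% of 12693 genes. Col1a1 was 252 ± 107 CPM (SD, n = 8) in CRMP1+CRMP2 and 145 ± 68.8 CPM (SD, n = 12) in these controls. Col4a1 was 301 ± 62.7 and 243 ± 51.7 CPM.

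The 5 calls against all controls depended on the litters and on 2 animals. With the litter as a random effect, with counts summed per litter, or with batch and sex in place of the surrogate variable, 0 collagens were called. Without litter 9_1 or litter 9_6 there were 0, and without litter 9_11 or 9_16 there were 8. The shares of all genes called in these settings are not given here, so these counts are not results about collagens alone. Without the 2 CRMP1+CRMP2 animals high in pineal markers, 0 collagens were called, beside 2.54% of 12658 genes tested, where 11.4% were called with all animals. Col8a1 then had a log2 fold change of 0.36 ± 0.33 against all controls (adjusted p = 0.55 in edgeR). Against batch 2 controls it had 0.13 ± 0.37. The 2 animals were those with the highest Col8a1 of the group, 10.5 and 7.37 CPM. With all animals kept, 7 of 8 pineal markers tested and 11 of 12 choroid plexus markers were called higher against all controls. Their medians were 3.75 and 1.79 on the log2 scale. The 2 animals were picked by their pineal sum, and the filter asked for over 1 CPM in at least 2 animals. The pineal count is thus not independent of that choice. Between the control batches 2 of the 10 pineal markers passed the filter. Of 18 meningeal fibroblast markers 1 was called higher for CRMP1+CRMP2, with a median of 0.50. Of 10 neuron markers 3 were called lower, as were 2 of 8 astroglia and 3 of 8 oligodendrocyte markers. Against batch 2 controls 6 of 8 pineal markers were called higher and 0 of 12 choroid plexus markers, the latter with a median of 0.51. There 0 of the meningeal, neuron, astroglia and oligodendrocyte markers were called. The choroid plexus sum had a median of 22.1 CPM in batch 1 controls, 755 in batch 2 controls and 1222 in CRMP1+CRMP2. The part of these markers in the collagen result was not tested.

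**Figure D4:**
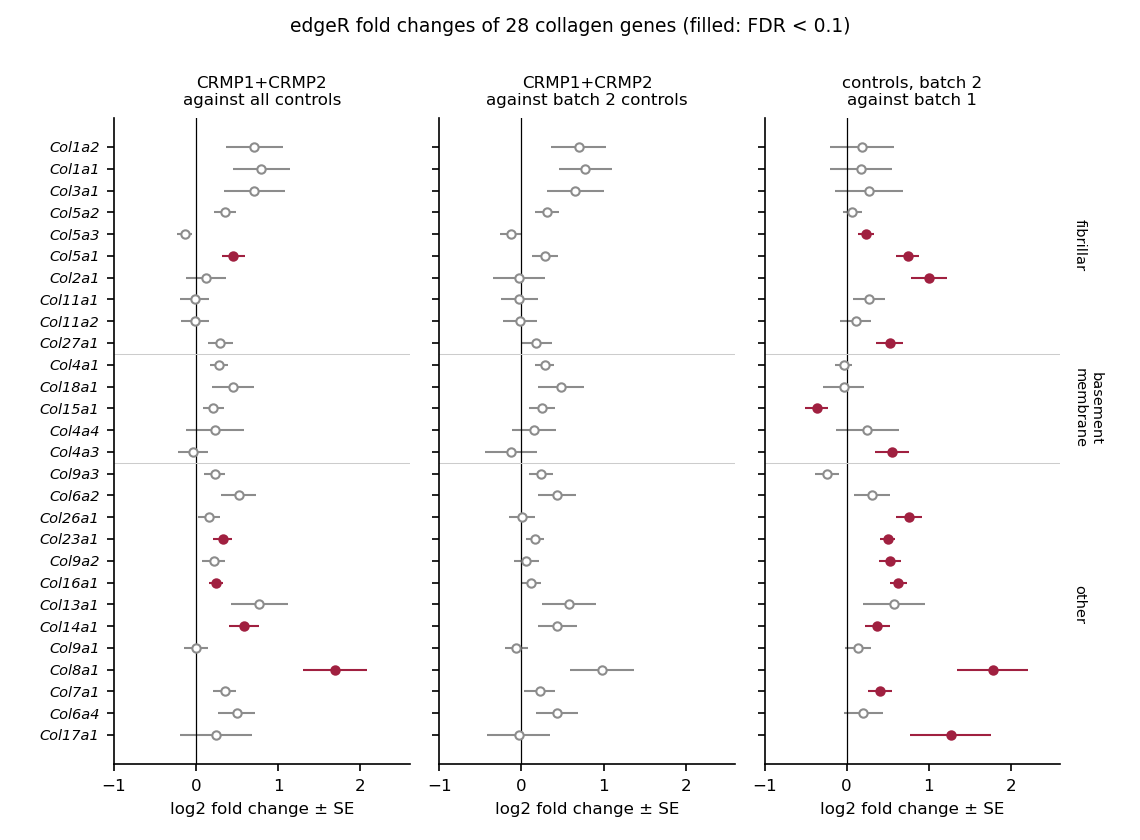
edgeR log2 fold change with SE of the 28 collagens in 3 comparisons, with filled points at FDR under 0.1 and genes in rows by class. Of the 5 filled points of CRMP1+CRMP2 against all controls, 0 are filled against batch 2 controls, and all 5 genes are among the 14 filled in the comparison of controls between batches.

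The other patterns had no called collagen. For CRMP1+GDA, 0 of 28 were called against all controls, beside 0% of 12641 genes, and 1 of 28 had an unadjusted p under 0.05, beside 3.65% of genes: Col5a3 (log2 fold change -0.27 ± 0.11, adjusted p = 0.999). Without the animal high in pineal markers it had -0.24 ± 0.12 (adjusted p = 0.999). The next in p with all animals was Col15a1 (-0.23 ± 0.16, adjusted p = 0.999). Against batch 2 controls, 0 of 28 were called, beside 0% of 12738 genes, and 2 of 28 had p under 0.05, beside 4.77%: Col1a1 (0.74 ± 0.35) and Col1a2 (0.77 ± 0.37), both with an adjusted p of 1. Col1a1 stood at 126, 209 and 399 CPM in the 6 animals, and these overlapped the 39.4 to 243 CPM of the controls. The highest of the 6 was the animal high in pineal markers, and without the 5 such animals of batch 2 Col1a1 had 0.62 ± 0.37 and Col1a2 0.66 ± 0.39, both with an adjusted p of 0.999. DESeq2 called 0 collagens in both comparisons.

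For STIP1+NSE, 0 of 28 collagens were called against all controls, beside 0.0474% of 12660 genes, and 0 of 28 had an unadjusted p under 0.05, beside 3.19%. The smallest p were those of Col8a1 (0.50 ± 0.32) and Col15a1 (0.18 ± 0.13), each with an adjusted p of 1. Against batch 2 controls 0 of 28 were called, beside 0% of genes, and 0 had p under 0.05, beside 2.27%. Col6a2 (0.43 ± 0.23) and Col1a1 (0.55 ± 0.32) had the smallest p there. Col1a1 was 213 ± 107 CPM (SD, n = 8). Replicates 3 and 5 of this pattern were high in pineal markers, with 56.6 and 101.7 CPM. Replicate 3 had the group's highest Col1a1 (375 CPM) and Col6a2 (87.6 CPM), and results without these animals are not given here. DESeq2 called 0 in both.

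LDHA/B+CRMP1+STIP1, the pattern sequenced in both batches, had 0 of 28 collagens called against all controls, beside 0.0157% of 12700 genes, and 0 of 28 at an unadjusted p under 0.05, beside 7.17%. The smallest p were those of Col8a1 (0.49 ± 0.25, adjusted p = 0.706) and Col9a2 (-0.17 ± 0.11, adjusted p = 0.79). In batch 2, 0 of 28 were called, beside 0% of genes, and 0 had p under 0.05, beside 4.84%, with Col13a1 (0.51 ± 0.32) and Col2a1 (-0.45 ± 0.30) first. In batch 1, 0 of 27 were called, beside 0.0161% of 12415 genes, and 0 had p under 0.05, beside 5.45%, with the smallest adjusted p at 0.981. DESeq2 called 0 in each of these comparisons. Col1a1 was 126 ± 60.4 CPM (SD, n = 16) beside 125 ± 66.3 CPM (SD, n = 12) in the controls of batch 1, and 181 ± 80.3 CPM (SD, n = 9) beside 145 ± 68.8 CPM (SD, n = 12) in batch 2.

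The response to LDHA/B+CRMP1+STIP1 was then compared between the batches by an interaction term. It was called for 0 of 28 collagens, beside 0.11% of 12700 genes, and 0 had an unadjusted p under 0.05, beside 3.05%. A test of any difference among the 4 patterns of batch 2 called 0 of 28, beside 0% of 12738 genes. At p under 0.05 it gave 2 of 28, beside 7.03%, namely Col6a4 and Col15a1, each with an adjusted p of 0.663. DESeq2 called 0 in both tests. No collagen thus differed between patterns at this threshold, which does not show that the patterns were alike.

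The comparison with the most collagens called was that of the batches. Among controls alone, 13 of 28 collagens were higher and 1 was lower in batch 2 than in batch 1 at FDR under 0.1, a share of 50%, beside 41.5% of 12565 genes tested. At an unadjusted p under 0.05 there were the same number, 14 of 28, beside 43.5%. In the fibrillar class 4 of 10 were higher, in the basement membrane class 1 of 5 was higher and 1 lower, and among the other collagens 8 of 13 were higher.

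The 10 collagens with the smallest p were all higher in batch 2. Col16a1 (log2 fold change 0.63 ± 0.10, adjusted p = 4.21e-05) had a median of 17.3 CPM in batch 1 and 30.8 CPM in batch 2. Col23a1 (0.50 ± 0.09, adjusted p = 7.89e-05) and Col5a1 (0.74 ± 0.14, adjusted p = 0.000184) followed. Col26a1 (0.76 ± 0.16) and Col2a1 (1.00 ± 0.22) were next, and Col2a1 had 8.92, 21.9 and 34.1 CPM (lowest, median, highest) in batch 1 and 15.02, 46.7 and 56.6 CPM in batch 2. Col8a1 had the largest log2 fold change of the 28, 1.78 ± 0.43 (adjusted p = 0.00231). Col9a2 (0.53 ± 0.14), Col27a1 (0.52 ± 0.17), Col7a1 (0.40 ± 0.15) and Col4a3 (0.55 ± 0.21) completed the 10. The 4 beyond that rule were Col5a3, Col14a1 and Col17a1, which were higher, and Col15a1, the one lower collagen (-0.36 ± 0.14, adjusted p = 0.0499), with a median of 15.7 CPM in batch 1 and 12.2 CPM in batch 2.

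The type I and III genes, which varied most between animals, were not among these calls, nor was Col4a1, which varied least. Col8a1 and Col2a1, whose SDs within groups were 0.658 and 0.654 on the log2 scale, were among them. Col1a1 had a log2 fold change of 0.17 ± 0.38 by batch, and its median was 152 CPM in controls of batch 1 and 142 CPM in those of batch 2. Col4a1 had a median of 238 and 248 CPM. With the litter as a random effect 7 collagens were called between batches, and with counts summed per litter 4 were (3 batch 1 litters against 4). Without litter 9_25 there were 9. The shares of all genes called in these settings are not given here. All 12 choroid plexus markers were called higher in batch 2, with a median of 3.42 on the log2 scale, beside 41.5% of all genes called. Ttr, the transthyretin gene of the choroid plexus, had a median of 14.7 CPM over all animals of batch 1 and 972 CPM over those of batch 2. Of 18 meningeal fibroblast markers 2 were called higher, a share below that of all genes. Of 8 astroglia markers 5 were higher and 2 lower, and of 10 neuron markers 1 was higher and 5 lower. The part of these markers in the batch difference was not tested, and dissection, library preparation and sequencing run cannot be told apart in it.

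**Figure D5:**
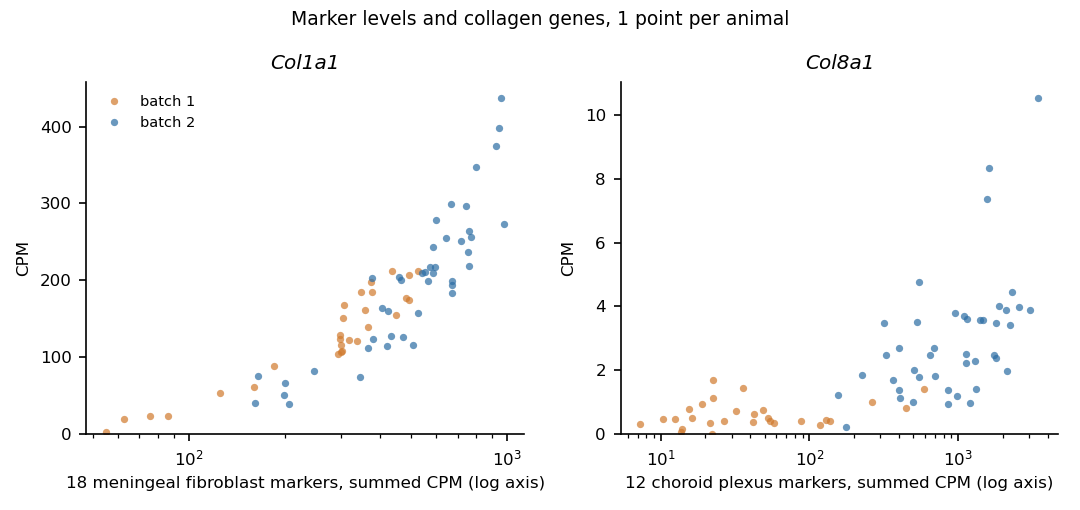
Left, Col1a1 in CPM against the summed CPM of 18 meningeal fibroblast markers (log axis), and right, Col8a1 against 12 choroid plexus markers (log axis), with 1 point per animal coloured by batch. Col1a1 rises along the meningeal markers in both batches, and the 3 highest Col8a1 values, 7.37, 8.35 and 10.5 CPM, belong to batch 2. These 3 animals are among the 5 high in pineal markers, with sums of 81.5, 48.5 and 275 CPM in that order. The STIP1+NSE animals of the 5 have 4.75 and 3.695 CPM of Col8a1. Batch means are not taken off in the panels. With group and batch means taken off, r of Col8a1 was 0.455 with choroid plexus, 0.518 with meningeal, 0.49 with endothelial and 0.416 with pineal markers.

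Females and males did not differ in any collagen at the threshold. With batch and group as covariates, 0 of 27 collagens were called, beside 0.0641% of 12477 genes, and 0 had an unadjusted p under 0.05, beside 4.69%. DESeq2 called 0. With the litter as a block, which pairs the sexes within the 22 litters of 27 that held both, edgeR also called 0, and 3 had an unadjusted p under 0.05. The share of all genes under 0.05 in that fit is not given here, so the 3 are not a result about collagens alone. In the first fit, with batch and group as covariates, the smallest p was that of Col5a1 (female against male -0.14 ± 0.09, adjusted p = 0.987). In batch 2 controls sex and litter overlap, since 4 of the 6 females came from litter 9_10 and 4 of the 6 males from litter 9_25.

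Genes that make, bind or break down collagen were then counted from lists by role, in CRMP1+CRMP2 against all controls. In that comparison 11.4% of all genes tested were called, and the counts of the lists stand beside that share. Of 33 genes of collagen synthesis and secretion 3 rose and 0 fell, a share below it, and their median log2 fold change was 0.21. Bmp1, the main procollagen C-proteinase (0.27 ± 0.07, adjusted p = 0.0251), and its relative Tll2 (0.75 ± 0.21, adjusted p = 0.0326) had the smallest p. Of 7 collagen receptors tested 3 rose, with a median of 0.38: Itga11, the integrin chain for type I collagen (0.70 ± 0.16, adjusted p = 0.0152), and Mrc2, the collagen-uptake receptor (0.44 ± 0.16, adjusted p = 0.0935), led.

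Of 10 genes of collagen breakdown 1 rose, close to the 11.4% of all genes, the gelatinase Mmp2 (0.60 ± 0.22, adjusted p = 0.0959), with a median of 0.05, and Ctsk, the collagenolytic cathepsin, had 0.49 ± 0.25 (adjusted p = 0.23). Of 15 partners of the basement membrane 3 rose and 1 fell, with a median of 0.28: the laminin chain Lamc1 had 0.32 ± 0.10 (adjusted p = 0.0586), and Ntn4, netrin 4, fell by 0.33 on the log2 scale (SE 0.10, adjusted p = 0.0600). Of 16 partners of fibrils 4 rose, with a median of 0.46, led by fibronectin, Fn1 (0.60 ± 0.14, adjusted p = 0.0145), and periostin, Postn (0.71 ± 0.18, adjusted p = 0.02). Over all genes the median was 0.01. Without the 2 animals high in pineal markers, 1 gene of the 5 lists was called, Tll2 (0.84 ± 0.23, adjusted p = 0.0836), beside 2.54% of 12658 genes. Itga11 then had 0.60 ± 0.19 (adjusted p = 0.103), Fn1 0.51 ± 0.15 (adjusted p = 0.1) and Mmp2 0.19 ± 0.21 (adjusted p = 0.631).

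Against batch 2 controls 1 gene of these 5 lists was called, Itga11 (0.58 ± 0.16, adjusted p = 0.0964), beside 0.785% of all genes, and the medians of the 5 lists, in the same order, were 0.17, 0.31, 0.05, 0.25 and 0.41. Without the 5 animals of batch 2 high in pineal markers 0 genes of the lists were called, beside 0% of genes, and Itga11 had 0.48 ± 0.17 (adjusted p = 0.412).

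Between the control batches, where 41.5% of all genes were called, 8 of 33 synthesis genes were higher and 3 lower in batch 2, a smaller share than that of all genes. The procollagen N-proteinases Adamts2 (1.14 ± 0.19, adjusted p = 4.08e-05) and Adamts3 (-0.78 ± 0.10, adjusted p = 2.18e-06) went opposite ways. Of 7 receptors 3 were higher, led by the discoidin receptors Ddr1 (0.32 ± 0.07, adjusted p = 0.00113) and Ddr2 (0.41 ± 0.15, adjusted p = 0.0316). Of 10 breakdown genes 4 were higher and 1 lower, with the inhibitor Timp2 (0.31 ± 0.06, adjusted p = 0.000335) and the membrane protease Mmp15 (0.23 ± 0.05, adjusted p = 0.00099) first. Of 15 basement membrane partners 4 were higher and 3 lower, among them Tinagl1 (1.30 ± 0.25, adjusted p = 0.000241) and Ntn4 (-0.56 ± 0.08, adjusted p = 1.24e-05). Of 16 fibril partners 3 were higher, also a smaller share than that of all genes, led by Tgfbi (0.89 ± 0.20, adjusted p = 0.00109) and fibromodulin, Fmod (1.02 ± 0.28, adjusted p = 0.00606).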

How the data were processed

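RNA of 71 animals was sequenced from poly-A libraries. Per the labels and the methods, the authors aligned the reads with STAR 2.5.4b to rn7 and deposited featureCounts gene counts, unnormalized, with the exon length of each gene; strand and multi-mapping options are not given in the sources used here. Of the counts from 1 to 9, 74.5% were even, so a table of halved counts was also tested. Groups came from the labels, and batch from the title series.

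Counts were tested with edgeR 4.0.16 in R 4.3.3 (TMM, quasi-likelihood test, Benjamini-Hochberg over all genes tested, FDR under 0.1). Genes needed at least 1 CPM in at least 8 animals for the general and sex comparisons, and over 1 CPM in at least 2 otherwise. Comparisons with all controls had 1 surrogate variable (sva 3.50.0), and those within a batch had sex. The cohort of a litter was not a covariate in any comparison. DESeq2 1.42.0, limma 3.58.1 with litter as a random effect, litter sums, other covariates, filters and scalings, and leaving out litters were alternatives. Littermates share a dam, so p-values over animals treat related animals as separate. The test was tried on simulated data.

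Named were the 3 highest collagens of each class, called collagens (up to 10 by p), the 2 smallest p of each pattern, Col4a4 for its low level, type IV pairs, 2 genes per list and 5 genes most like Col1a1 and Col4a1; other named genes were chosen after their values were seen. The members and lists were chosen with earlier results of these data known. The muscle and microglia lists had 0 members called for CRMP1+CRMP2 against all controls, the mural and cartilage lists 0 and the endothelial list 1, higher.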

Additional observations from a re-analysis of the deposited data

Results flagged for a closer look

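In each group of 6 to 9 animals the highest and the lowest CPM of each collagen were compared with the rest of the group by Dixon's gap ratio. Of 112 such checks 9 marked an animal far above the others of its group. For independent, normally distributed values about 1 in 20, or 5.6, would be marked. The checks used CPM without a log scale, of genes that move together in the same animals. The 5.6 is thus only a rough guide. In CRMP1+CRMP2, Col14a1 was 25.99 CPM in replicate 2 (next 14.36), and in replicate 4 Col27a1 was 28.34 CPM (next 17.6) and Col5a1 113.0 CPM (next 72.03). Replicate 2 also had the highest pineal markers, 275 CPM. In STIP1+NSE, Col5a1 was 88.52 CPM in replicate 3 (next 60.15), Col9a3 45.54 CPM in replicate 7 (next 37.45) and Col4a4 0.815 CPM in replicate 8 (next 0.589). Of these, replicate 3 was high in pineal markers, with 56.6 CPM. In CRMP1+GDA, replicate 5 had both Col5a2 at 90.15 CPM (next 61.38) and Col8a1 at 8.351 CPM (next 3.961), and it was the animal of that group with 48.5 CPM of pineal markers. In LDHA/B+CRMP1+STIP1 of batch 2, Col4a4 was 1.319 CPM in replicate 7 (next 0.768). Groups of 12 and 16 animals were not checked.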

How the results depend on the processing

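The 5 collagens called for CRMP1+CRMP2 against all controls became 3 with no filter on low counts. They became 0 with the litter as a random effect, with counts summed per litter, with batch and sex as covariates, with PC1 and PC2 as covariates, and without the animals high in pineal markers (an alternative chosen after seeing the data). With each litter of the pattern left out in turn the count was 0 to 8. Against batch 2 controls it was 0 to 3. Between the control batches the 14 calls became 7 with the litter as a random effect and 4 with counts summed per litter, and 9 to 15 with 1 litter left out. In 11 of the 14 comparisons no collagen was called under any setting run. For most settings the share of all genes called is not given here, so these counts are not results about collagens alone. Without a covariate Col8a1 had -0.037 for LDHA/B+CRMP1+STIP1 against all controls and Col15a1 had -0.057 for STIP1+NSE against all controls, each opposite in sign to the value reported and not called in either. The cause of these changes was not tested. No paired analysis was possible because replicate numbers only name the animals and each litter belonged to 1 exposure, except between the sexes, where pairing within litters (an alternative chosen after seeing the data) gave 0 called collagens. Col4a4 and Col17a1 passed 1 CPM in 6 and 9 animals, so their values rest on few counts.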
